A study of Homo sapiens with 4 samples.

Results

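The cytosolic ribosomal protein genes encode the proteins of the small and large subunits of the ribosome that translates nuclear-encoded messages. They were taken as the rows of the deposited table with an mRNA accession whose symbol follows the RPL or RPS pattern, together with RPLP0, RPLP1, RPLP2 and RPSA. This gave 84 genes among 15942 in the table. Among them, 10 encode proteins known, in human cells or in another species, to act on their own transcripts. Another 8 are duplicated copies whose symbol ends in L, AL or L1, called L paralogs here. RNA came from H9 human embryonic stem cells, an established line, transfected with a small interfering RNA (siRNA) against UPF1 (siUpf1 in the labels, siUPF1 here, 2 libraries) or against luciferase, which has no target in these cells (siLuc, 2 libraries). UPF1 is the helicase at the centre of nonsense-mediated decay (NMD), which removes transcripts on which translation stops early, and the study asked how expression changes when it is lost. No other genotype or drug distinguishes the groups in the labels, but treatment text common to every library also mentions actinomycin D and siUPF3A without tying either to a library. The siRNA acts in a whole culture, and fewer cells of a type cannot be told apart from less RNA per cell.

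Ribosomal protein messages are among the most abundant in a growing cell. Most begin with a 5′ terminal oligopyrimidine (TOP) tract, a C followed by an unbroken run of pyrimidines, through which mTOR signalling controls their translation together. A few ribosomal proteins also hold down their own synthesis. RPL3, for example, promotes splicing of its own precursor into an isoform with an early stop codon that NMD degrades. L paralogs such as RPL22L1 encode near copies of a core protein, and RPL22 protein is known to repress RPL22L1.

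Transcript starts in RefSeq (GRCh38.p14) could be matched by symbol for 67 of the 84 genes, with 83 starts in all. A start was counted as TOP when its first base was a C and that base and the following ones made a run of at least 5 pyrimidines (C or T), read on the transcribed strand only. By this count 46 of 67 genes (68.7%) had such a start, against 750 of 11093 other tested genes (6.76%) and 1404 of all 27305 symbols in the promoter table (5.14%). The following windows show 15 bases before and 15 from the annotated start, with capitals marking the pyrimidine run that opens with a C at the start. Shown are the only gene that rose, some genes that fell or are known for autoregulation, and 4 paralogs beside their parents. RPL19, which fell furthest, is not shown, and neither of its 2 annotated starts opens with such a run.
RPL28, chr19:55385917-55385946, plus strand: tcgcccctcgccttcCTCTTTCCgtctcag
RPLP1, chr15:69452803-69452832, plus strand: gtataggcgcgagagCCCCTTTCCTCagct
RPL3, chr22:39319609-39319638, minus strand: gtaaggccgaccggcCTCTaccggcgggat
RPL10A, chr6:35468386-35468415, plus strand: tgcgcaagacatgctagtctcttttccggt
RPL22L1, chr3:170870181-170870210, minus strand: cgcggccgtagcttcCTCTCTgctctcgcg
RPL22, chr1:6199581-6199610, minus strand: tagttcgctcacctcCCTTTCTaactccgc
RPL26L1, chr5:172958714-172958743, plus strand: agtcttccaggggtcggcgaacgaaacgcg
RPL26, chr17:8383179-8383208, minus strand: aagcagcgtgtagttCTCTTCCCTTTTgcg
RPS27L, chr15:63157463-63157492, minus strand: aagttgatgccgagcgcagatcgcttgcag
RPS27, chr1:153990747-153990776, plus strand: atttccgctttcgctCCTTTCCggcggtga
RPL36AL, chr14:49620612-49620641, minus strand: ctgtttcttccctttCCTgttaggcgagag
RPL36A, chrX:101390996-101391025, plus strand: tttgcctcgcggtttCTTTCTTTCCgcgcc

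All 4 parents in this set opened with a run of at least 7 pyrimidines, and of the 4 paralogs only RPL22L1 reached 5. RPL26L1 is annotated with 2 starts, neither of which opens with such a run. The annotated start of RPL10A lies a few bases ahead of a pyrimidine stretch, so the count depends on where RefSeq places a start, and a start without the run says only that these letters are not at that position.

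The deposited values are read counts, which summed to 10058515 and 11200973 in siUPF1 replicates 1 and 2 and to 8887239 and 9937231 in the siLuc libraries, called a and b because their columns share a name. The labels do not say whether replicate libraries are separate cultures, so the spread behind the p-values could be technical. UPF1 itself had 60.8 and 78.2 CPM (counts per 1000000 reads, scaled by the trimmed mean of M values, TMM) in siUPF1 libraries, against 219 and 205 CPM in siLuc libraries. The 12 pluripotency markers were all detected, at 83.4 to 474 CPM in siUPF1 libraries and 94.9 to 501 CPM in siLuc libraries. Of 24 markers of fibroblasts and early lineages, 15 are in the table and none of those was at 0, with summed levels of 657 and 641 CPM in siUPF1 libraries against 657 and 654 CPM in siLuc libraries. The median over these 15 was 10.4 and 10.9 CPM in siUPF1 libraries and 5.77 and 7.98 CPM in siLuc libraries. COL1A1, COL1A2 and THY1 held most of the sum, at 156 to 185 CPM each, so it says little of the others. In the test below 5 were higher, GATA3, AFP, TBX6, CXCR4 and PDGFRB (log2 fold changes of 1.19 to 0.40), beside 16.8% of all genes. The 2 lower were FOXA2 (-2.97) and DCX (-1.11), beside 9.14% of all genes. The part of these markers in the results was not tested.

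Ribosomal protein transcripts stood slightly lower after UPF1 knockdown, nearly throughout the family. Of 83 genes tested, 23 fell, 1 rose and 59 did not pass (edgeR's quasi-likelihood test, p adjusted by Benjamini-Hochberg over 15557 genes, threshold 0.05). The fallers were 27.7% of the family, against 9.14% of all genes tested that fell and 16.8% that rose. The fold change was below 0 for 78 of 83 genes, with a median of -0.19 on the log2 scale, against -0.0075 over all genes tested. Both siUPF1 libraries lay below both siLuc libraries for 70 of 83 genes (84.3%), against 31.1% of all genes, and above both for 2, against 32.3% of all genes. RPL3L, the striated muscle paralog of RPL3, was the gene left untested, with raw counts of 8 and 8 in siUPF1 libraries and of 5 and 11 in siLuc libraries.

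**Figure D1:**
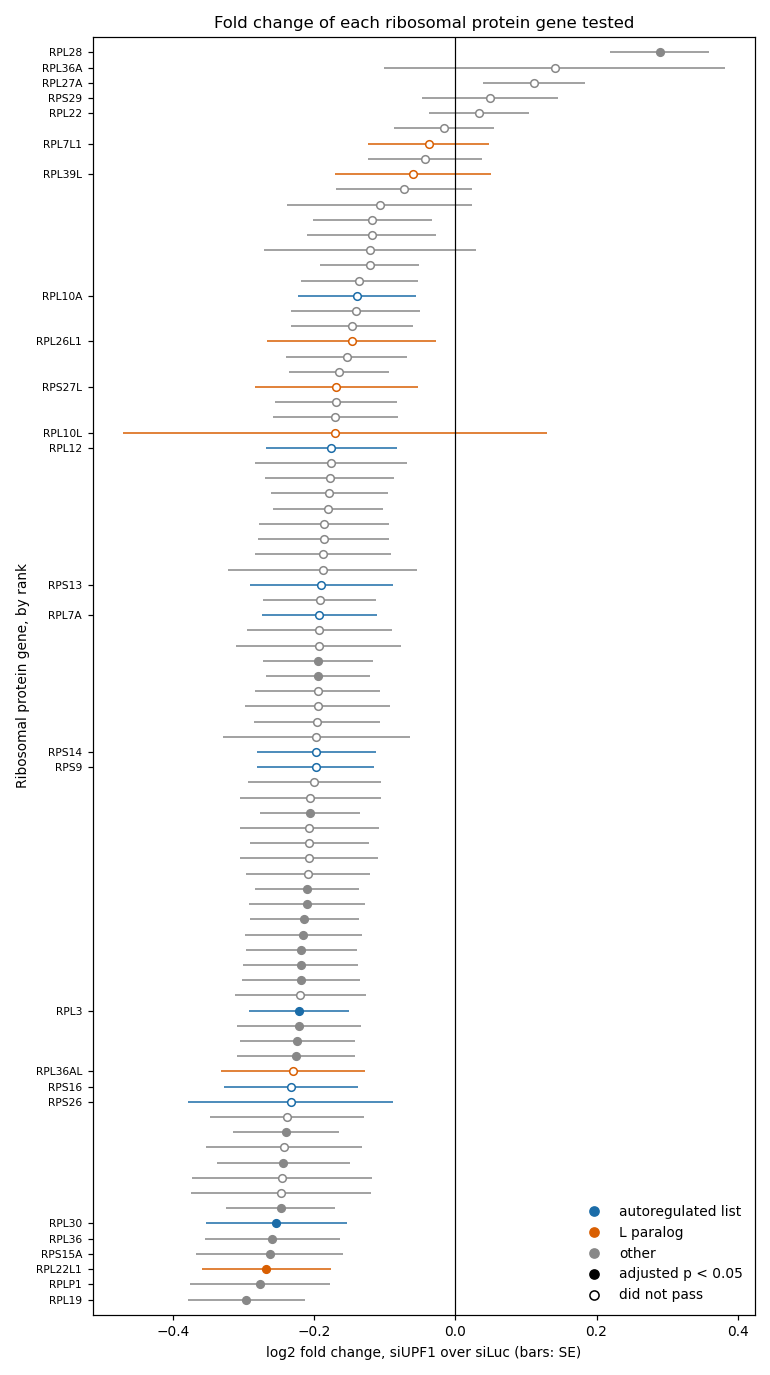
Log2 fold change of siUPF1 over siLuc (x axis, with SE bars) for each of the 83 ribosomal protein genes tested, ranked from the highest at the top, with names for the autoregulated list, the L paralogs and the 5 highest and 5 lowest genes. Blue marks the autoregulated list, orange the L paralogs and grey the rest. Filled points passed an adjusted p of 0.05, RPL28 is the only filled point above 0, and the 23 other filled points lie between -0.30 and -0.19.

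The falls were small, and the groups also differed in sequencing depth. The siUPF1 libraries together held 12.9% more reads than the siLuc libraries, a log2 ratio of 0.18. In raw counts the family summed to 44616 and 44714 reads in siUPF1 libraries, against 42030 and 46540 reads in siLuc libraries, so that its share of all reads was 0.444% and 0.399% in siUPF1 libraries and 0.473% and 0.468% in siLuc libraries. These genes are packed with reads. Their median was 0.70 reads per base of transcript model, against 0.17 over all genes, and no gene with at least 100 counts exceeded 1.12. In this range 70 of the 84 genes lay above the 90th percentile of all genes and 35 above the 99th. The part of this bound and of the depth difference in the results was not tested.

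Above 0.25 reads per base, other genes at the same read density also stood lower, with medians closer to 0 in each range. Between 0.1 and 0.25 they did not: the median was 0.033 for 4799 other genes and -0.16 for 5 ribosomal protein genes. Above 0.8 reads per base, 8 of 16 ribosomal protein genes fell with a median of -0.21, and 21 of 48 other genes fell with a median of -0.18 on the log2 scale. Between 0.7 and 0.8 reads per base, 9 of 25 ribosomal protein genes fell with a median of -0.20, and 22 of 102 other genes fell with a median of -0.14. Between 0.5 and 0.6 the medians were -0.19 for 9 ribosomal protein genes and -0.093 for 574 other genes. At 0.05 to 0.1, where no ribosomal protein gene lay, the median of 1938 other genes was 0.078. After a trend on reads per base was taken out of every library, 2 ribosomal protein genes fell and 1 rose, the median was -0.065, and 13.4% of all genes fell and 13.8% rose. The 2 fallers of that fit were RPL22L1 and RPL13, which encodes a large subunit protein.

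**Figure D2:**
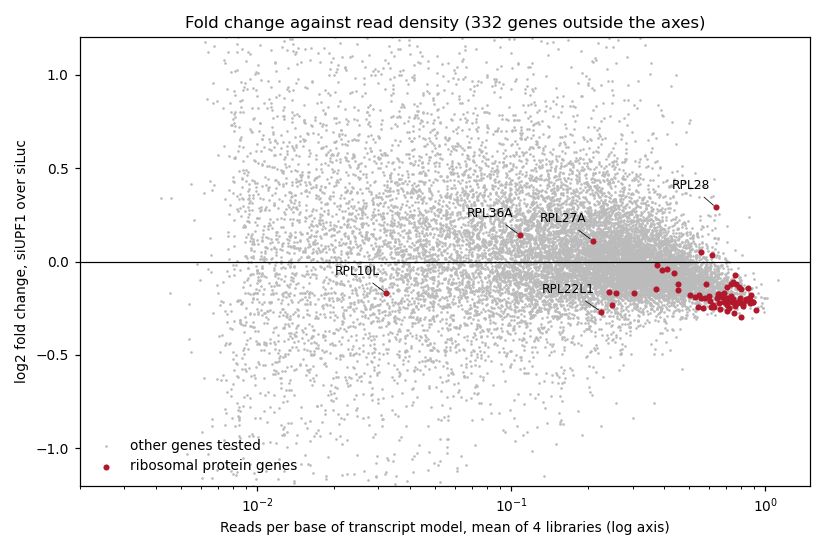
Log2 fold change of siUPF1 over siLuc (y axis) against reads per base of transcript model (x axis, log scale) for the ribosomal protein genes tested (red) and every other gene tested (grey); 332 genes lie outside the axes. Most red points crowd at the dense end between -0.3 and -0.1, where grey points also lie below 0.

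Libraries of a group also differed from each other. In CPM, siUPF1 replicate 2, the deepest library, stood below siUPF1 replicate 1 for 81 of 83 genes, with a median log2 ratio of -0.17. The pair closest in depth was siUPF1 replicate 1 over siLuc b, whose totals differed by 1.22%. Between them 71 of 83 genes were lower in the siUPF1 library, with a median of -0.086. The widest gap, siUPF1 replicate 2 over siLuc a, with totals 26.0% apart, had a median of -0.30 with 79 of 83 genes lower. The remaining pairs had similar gaps in depth but unlike medians, with -0.13 for siUPF1 replicate 1 over siLuc a (totals 13.2% apart) and -0.25 for siUPF1 replicate 2 over siLuc b (12.7% apart). Within the siLuc group the median of b over a was -0.035.

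Which libraries entered decided how many genes were called lower. Without siUPF1 replicate 2 no gene of the family passed the edgeR test as lower (4 at an unadjusted p under 0.05), beside 9.62% of all genes. Without siLuc b none passed (28 at an unadjusted p under 0.05), beside 3.89% of all genes, and without siLuc a only RPL19 did (9 unadjusted), beside 3.51%. Without siUPF1 replicate 1 the fallers numbered 58, beside 9.7% of all genes. In the same order 14.4%, 10.1%, 9.19% and 17.6% of all genes rose. DESeq2 on all libraries called none of the family lower, with 11 at an unadjusted p under 0.05, beside 2.99% of all genes lower and 8.19% higher. With the edgeR test, 24 fell under RLE factors, 22 under library size alone and 26 under TMM on genes below 0.25 reads per base, beside 9.44%, 9.89% and 8.65% of all genes lower and 16.3%, 15.9% and 11.6% higher. With no filter 25 fell and with a filter of 5 CPM 23, beside 9.46% and 9.58% lower and 16.1% and 17.7% higher. With limma-voom 22 fell, beside 8.8% lower and 16.1% higher. At an adjusted p of 0.1 in edgeR, 39 fell, beside 13.0% lower and 19.7% higher.

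**Figure D3:**
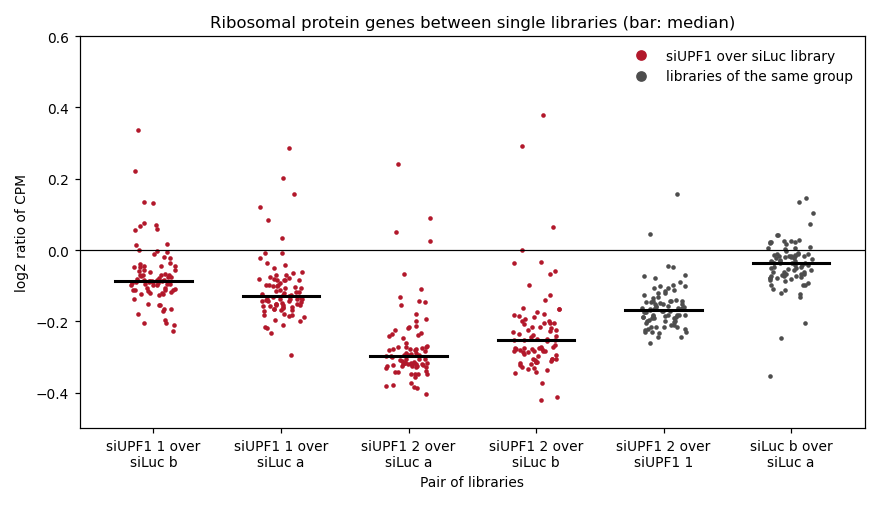
Log2 ratio of CPM between 2 single libraries (y axis) for the 83 ribosomal protein genes tested, 1 point a gene, for the 4 pairs of a siUPF1 and a siLuc library (red) and the 2 pairs within a group (grey). The bars mark medians, which run from -0.30 for siUPF1 replicate 2 over siLuc a to -0.035 for siLuc b over a.

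RPL28, which encodes a large subunit protein that budding yeast lacks, was the only ribosomal protein gene to rise. It had 1536 and 1673 raw counts in siUPF1 libraries, against 1114 and 1219 raw counts in siLuc libraries. In CPM these were 154 and 149 in siUPF1 libraries and 126 and 122 in siLuc libraries. Both siUPF1 libraries lay above both siLuc libraries, as they did for 32.3% of all genes tested. RPL28 rose 1.22-fold, a log2 fold change of 0.29 (SE 0.070, adjusted p = 0.000361 in edgeR), at 0.638 reads per base. Of the 18 ribosomal protein genes between 0.6 and 0.7 reads per base, 88.9% had a fold change below 0, RPL28 and RPL22 being the exceptions. Its log2 fold change ranged from 0.24 to 0.40 over 13 alternatives and was 0.40 with the density trend removed. The call was lost without siLuc b (adjusted p = 0.0789, edgeR) and with scaling factors taken from sparsely read genes (adjusted p = 0.0765, edgeR). DESeq2 kept it (adjusted p = 0.013). The table sums 5 RefSeq transcripts for RPL28, so it cannot be read which of them changed.

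The next highest fold changes did not pass. RPL27A, a large subunit gene, had 108 and 103 CPM in siUPF1 libraries, against 96.6 and 98.3 CPM in siLuc libraries, without overlap (log2 fold change 0.11, SE 0.073, adjusted p = 0.267, edgeR). RPL22 had 138 and 121 CPM in siUPF1 libraries, against 127 and 126 CPM in siLuc libraries, and the groups overlapped (0.034, SE 0.071). RPS29, a small zinc-binding protein gene of the small subunit, overlapped as well, with 42.5 and 38.2 CPM in siUPF1 libraries and 36.9 and 40.9 CPM in siLuc libraries. RPL36A, at 45 and 57 raw counts in siUPF1 libraries and 44 and 38 raw counts in siLuc libraries, was too thinly covered for its fold change of 0.14 (SE 0.24) to be told from 0. The signs of RPL22, RPS29 and RPL36A turned under other settings.

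Members with long transcript models had a higher median fold change than the short ones, with wide spread among them. This split was chosen after the values were seen. The 9 tested genes with a model over 1500 bases had a median log2 fold change of -0.043 and included RPL28, RPL27A, RPL22, RPS23 (-0.016) and RPL32 (-0.043), while the 74 shorter genes had a median of -0.20. The others were long and low: RPL22L1 at -0.27, RPL37 at -0.17, RPL13 at -0.16 and RPL15 at -0.12. Across the 83 genes, fold change had a Spearman rho of 0.25 with model length and -0.36 with reads per base. Length enters both measures and all points share the same 4 libraries, so these are descriptions only.

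**Figure D4:**
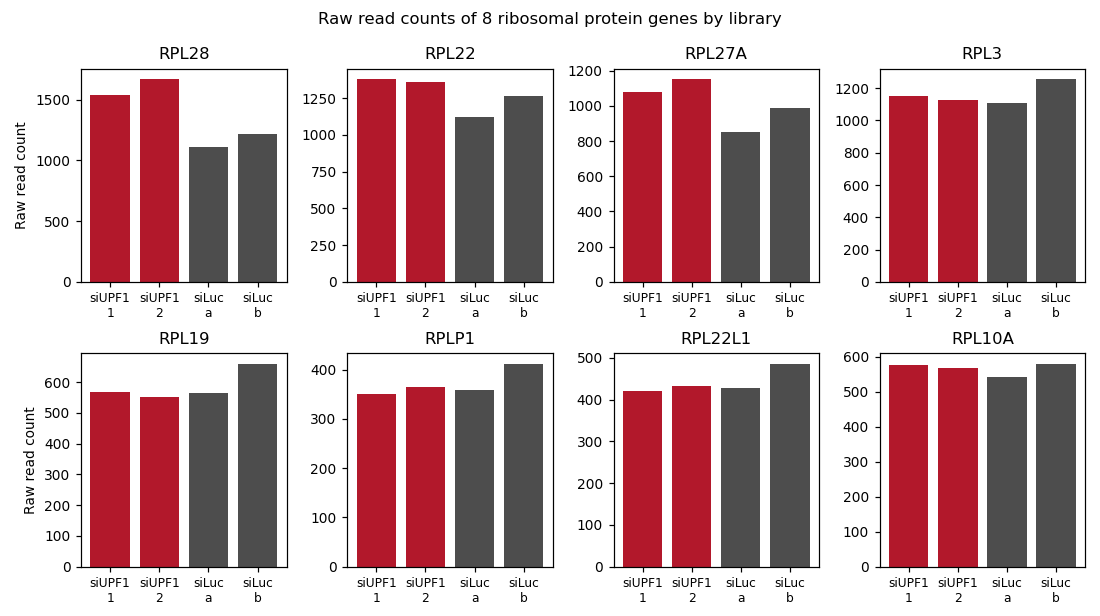
Raw read counts (y axis, from 0) in each library, siUPF1 in red and siLuc in grey, for 8 ribosomal protein genes. RPL28 has more reads in both siUPF1 libraries than in either siLuc library, while RPL3, RPL19, RPLP1 and RPL22L1 have most reads in siLuc b and like numbers in the other libraries.

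The largest falls were in RPL19, RPLP1, RPL22L1, RPS15A and RPL36. RPL19, a large subunit gene, had 56.8 and 49.1 CPM in siUPF1 libraries, against 63.9 and 65.8 CPM in siLuc libraries. Its log2 fold change was -0.30 (SE 0.083, adjusted p = 0.0026 in edgeR). Its raw counts were 568 and 551 in siUPF1 libraries and 565 and 660 in siLuc libraries, so 3 of the 4 libraries held about the same number of reads and siLuc b held more. RPLP1, a stalk protein gene, had 35.0 and 32.5 CPM in siUPF1 libraries, against 40.6 and 41.1 CPM in siLuc libraries (-0.28, SE 0.10). RPS15A had 33.5 and 28.6 CPM in siUPF1 libraries and 38.0 and 36.4 CPM in siLuc libraries (-0.26, SE 0.10), and RPL36, the gene with the most reads per base (0.922), had 38.8 and 34.9 CPM in siUPF1 libraries and 44.6 and 43.6 CPM in siLuc libraries (-0.26, SE 0.096). In each of them both siUPF1 libraries lay below both siLuc libraries, as in 84.3% of the family and 31.1% of all genes tested. These genes were picked for their falls, so the lack of overlap adds nothing to them. Other fallers included RPL3, RPL4, RPL5, RPL6, RPL7, RPL8, RPL11, RPL14, RPL23A, RPL29, RPL30, RPL31, RPLP0, RPS2, RPS3, RPS3A and RPS20, at -0.25 to -0.19.

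By subunit, 6 of 31 small subunit genes fell and none rose in the edgeR test (18 lower and none higher at an unadjusted p under 0.05; DESeq2 called none either way), with a median of -0.20, and 16 of 45 large subunit genes fell and 1 rose, with a median of -0.19, leaving the L paralogs out of both. The stalk and the 5S particle, which together hold 6 of the listed genes, gave 4 fallers and no riser in the edgeR test, beside 9.14% of all genes that fell. None of the 6 was lower in DESeq2 (1 at an unadjusted p under 0.05), and none with the density trend removed (none unadjusted). RPLP0, the base of the stalk, had 95.9 and 85.4 CPM in siUPF1 libraries, against 107 and 101 CPM in siLuc libraries. RPL5 and RPL11, which join 5S RNA and restrain the p53 ligase MDM2 when free of the ribosome, changed by -0.19 (SE 0.078) and -0.22 (SE 0.088). Of 26 genes whose introns are known to carry small nucleolar RNAs, 9 fell and none rose (14 lower and none higher at an unadjusted p under 0.05, edgeR; none either way in DESeq2), with a median of -0.19. The 57 other genes gave 14 fallers and 1 riser, with a median of -0.20. The subunit and small nucleolar RNA counts stand beside 9.14% of all genes tested that fell and 16.8% that rose.

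Genes known for autoregulation lay within the range of the rest of the family. Of 10 tested, 2 fell and none rose (6 lower and none higher at an unadjusted p under 0.05; DESeq2 called none, with 1 lower unadjusted), and their median was -0.20, against -0.19 for the 73 other genes. Of all genes tested, 9.14% fell and 16.8% rose. Values of the 10 ran from -0.25 to -0.14. All 10 had both siUPF1 libraries below both siLuc libraries, as did 84.3% of the family and 31.1% of all genes tested. RPL3 had 115 and 100 CPM in siUPF1 libraries, against 125 and 126 CPM in siLuc libraries. Its log2 fold change was -0.22 (SE 0.071, adjusted p = 0.0105 in edgeR), and -0.046 with the density trend removed (adjusted p = 0.509). RPL30, which in yeast blocks splicing of its own precursor, fell by 0.25 (SE 0.10). RPL10A had 57.7 and 50.5 CPM in siUPF1 libraries, against 61.2 and 57.9 CPM in siLuc libraries, and had the smallest change of the list, at -0.14 (SE 0.084). RPL12, whose unproductive isoform is a known NMD substrate, had 43.5 and 37.7 CPM in siUPF1 libraries and 45.9 and 45.6 CPM in siLuc libraries (-0.18, SE 0.093), without passing. RPS13, RPS16 and RPS26, whose proteins are known to bind their own precursors, changed by -0.19, -0.23 and -0.23 and did not pass. The remaining members, RPS9, RPS14 and RPL7A, lay at -0.20, -0.20 and -0.19 and did not pass. The table gives 1 count per gene over its RefSeq transcripts, and reads of an isoform with an early stop cannot be told apart from those of the productive one.

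L paralogs were less densely read than most of the family and most did not pass. Of 7 tested, RPL22L1 fell and 6 did not pass (2 were lower at an unadjusted p under 0.05; DESeq2 called none, with 1 lower unadjusted). Their median was -0.17, against -0.20 for the 76 core genes. By comparison, 9.14% of all genes tested fell and 16.8% rose. RPL22L1 had 42.0 and 38.5 CPM in siUPF1 libraries, against 48.3 and 48.5 CPM in siLuc libraries. Its log2 fold change was -0.27 (SE 0.092, adjusted p = 0.0178 in edgeR), and -0.32 with the density trend removed (adjusted p = 0.0103). Its density was 0.226 reads per base, against a median of 0.706 over the core genes, of which RPL36A (0.108) and RPL27A (0.209) were lower still. The adjusted p was 0.116 without siUPF1 replicate 2, 0.153 without siLuc a and 0.145 without siLuc b (edgeR), and 0.201 in DESeq2. Set against RPL22, RPL22L1 had 32.3% and 33.8% of its parent's reads per base in siUPF1 libraries, against 40.4% and 40.9% in siLuc libraries, and the groups did not overlap. With 2 libraries against 2 a permutation test cannot pass the threshold, so these ratios are given without a test.

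Of the other pairs, RPL36AL, RPL7L1 and RPL39L did not overlap between the groups either. For single genes in CPM, 31.1% of all genes tested had both siUPF1 libraries below both siLuc libraries, and 32.3% had them above. Lack of overlap was thus common, and the pairs are not read as shifts. RPL7L1 had 60.8% and 65.2% of the reads per base of RPL7 in siUPF1 libraries, against 56.7% and 54.3% in siLuc libraries, without overlap. RPL39L, known from testis and pluripotent cells, had 67.8% and 74.1% of RPL39 in siUPF1 libraries, against 67.1% and 62.3% in siLuc libraries, also without overlap. RPL26L1 had 49.0% and 53.5% of RPL26 in siUPF1 libraries and 51.1% and 48.6% in siLuc libraries, and the groups overlapped. RPS27L, a p53 target, had 42.3% and 47.6% of RPS27 in siUPF1 libraries and 46.0% and 42.1% in siLuc libraries, which overlapped too. RPL10L, a testis paralog, stayed between 5.93% and 6.86% of RPL10 in all libraries. RPL36AL had 574% and 456% of the reads per base of RPL36A in siUPF1 libraries, against 604% and 723% in siLuc libraries, without overlap, and its parent had only 38 to 57 raw counts in a library. Its own change was -0.23 (SE 0.10, adjusted p = 0.0781, edgeR). Coding sequences of some of these pairs are close enough to share reads, and the sources used here do not say how such reads were counted.

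**Figure D5:**
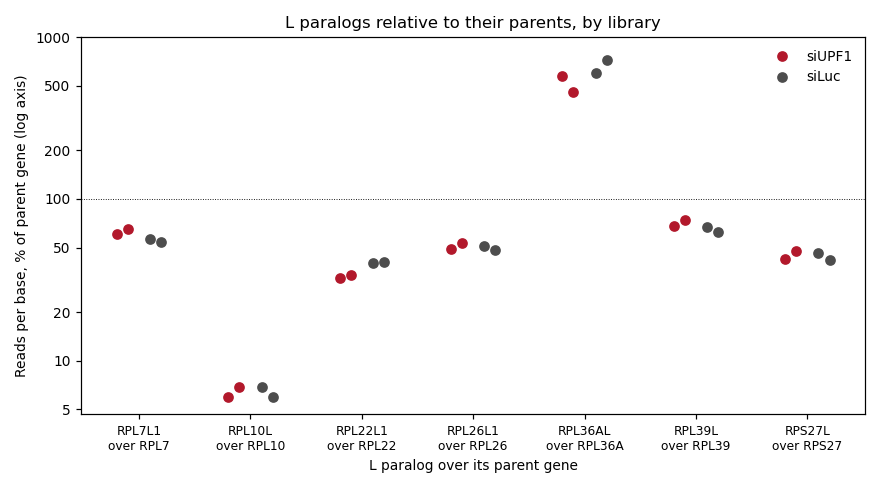
Reads per base of each L paralog as a percentage of its parent gene (y axis, log scale) in the 2 siUPF1 libraries (red) and the 2 siLuc libraries (grey). RPL22L1 and RPL36AL are lower in both siUPF1 libraries, RPL7L1 and RPL39L are higher in both, and RPL36AL is the only paralog read more densely than its parent.

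The family was also split by features of the annotation that the choice of genes did not use, without a test. Among the genes with a TOP start, 10 of 46 fell and 1 rose, with a median of -0.20, and among those without, 4 of 21 fell, with a median of -0.17. In GENCODE release 29, 33 of the 83 tested genes (39.8%) have a transcript classed as an NMD substrate, against 37.9% of 14497 other tested genes that could be matched. Of these 33, 14 fell and none rose, with a median of -0.20. Of the 50 genes without such a transcript 9 fell and 1, RPL28, rose, with a median of -0.19. The 33 were read more densely, with a median of 0.728 reads per base against 0.655 for the 50. DESeq2 called no gene of the family lower. Beside both splits, 9.14% of all genes tested fell and 16.8% rose in edgeR. The part of read density in these counts was not tested. A retained-intron transcript is annotated for 80.7% of the family and 51.8% of the other genes. The family has 1066 named processed pseudogenes in that release, with copies of 76 of the 84 genes and up to 90 for RPL23A, so counts of these genes are uncertain where reads fit several places.

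Genes that work with ribosomal proteins gave the following counts. Among ribosome-associated genes whose symbols fall outside the pattern, GNB2L1, the scaffold RACK1 of the small subunit, had 90.2 ± 7.59 CPM in siUPF1 libraries and 105 ± 3.05 CPM in siLuc libraries (SD, n = 2 each) and fell by 0.22 (SE 0.073). FAU stood at -0.22 (SE 0.10) and did not pass. Of 18 other messages known to carry TOP tracts, 5 fell and none rose (9 lower and none higher at an unadjusted p under 0.05, edgeR), with a median of -0.16. The nucleolar chaperone gene NPM1 (-0.25, SE 0.071), the poly(A)-binding protein gene PABPC1 (-0.22, SE 0.071) and the elongation factor gene EEF1G (-0.20, SE 0.072) were those with the smallest p. With the density trend removed, none of the 18 fell (1 at an unadjusted p under 0.05, edgeR), nor in DESeq2 (6 unadjusted). The 5 fallers of the main edgeR test were 27.8% of the 18, beside 9.14% of all genes that fell and 16.8% that rose.

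Ribosome assembly factors fell about as often as all genes. Of 41 tested, 4 fell and none rose (5 lower and none higher at an unadjusted p under 0.05, edgeR; 1 lower in DESeq2), with a median of -0.078. The fallers were 9.76%, beside 9.14% of all genes, and both siUPF1 libraries lay below both siLuc libraries for 41.5%, beside 31.1% of all genes. The nucleolin gene NCL, which at 0.934 reads per base is read more densely than any ribosomal protein gene, fell by 0.24 (SE 0.071), and RRS1 (-0.20, SE 0.075) and the rRNA methyltransferase gene FBL (-0.21, SE 0.078) fell too. Of 15 genes for RNA polymerase I and its factors, 1 fell and 1 rose, with a median of -0.025. The upstream binding factor gene UBTF had 188 ± 3.65 CPM in siUPF1 libraries and 221 ± 8.88 CPM in siLuc libraries (SD, n = 2 each), a change of -0.24 (SE 0.071). TAF1D rose by 0.22 (SE 0.088, adjusted p = 0.0479 in edgeR), a call lost in 9 of 13 alternatives. TAF1A, at 0.21 (SE 0.11), did not pass. The pluripotency markers, with a median of 0.69 reads per base, had a median change of -0.18. Of these 12 markers 6 fell and none rose, beside 9.14% of all genes that fell and 16.8% that rose.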

How the data were processed

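H9 RNA was extracted with Trizol, per the labels' protocols, which name no selection step. The authors deposited read counts as whole numbers without normalization, for 15942 genes and 4 libraries, and RPKM values beside them. STAR, DESeq2 and hg19 are named without roles or versions, per the submitters' processing notes. Strand, multimapping and duplicate handling are not given in the sources used here. Both siLuc count columns carry the same name and stand for the group, and 2 columns of siLuc RPKM values were not used. The deposited siUPF1 RPKM values served only to derive model lengths (counts over RPKM and library total), which had a median ratio of 0.996 to annotated lengths in 5884 single-transcript genes.

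Counts were tested with edgeR 4.0.16 in R 4.3.3 (glmQLFit and glmQLFTest, two-sided, TMM, filterByExpr, 15557 genes kept, Benjamini-Hochberg adjustment at 0.05), which was tested on simulated data. SE is the log2 fold change over the square root of F. Alternatives were RLE factors, library size alone, TMM on genes under 0.25 reads per base, DESeq2 1.42.0, limma-voom (limma 3.58.1), no filter, a filter of 5 CPM in at least 2 libraries, the threshold 0.1, a loess (span 0.3) on reads per base removed per library, and each library left out, which leaves a lone library assumed to vary like the other group. A value from siUPF1 replicate 1 over siLuc b alone was added after the data were seen. Chi-square over degrees of freedom between replicate libraries was 2.85 for siUPF1 and 1.70 for siLuc, more than counting alone gives, so none was taken for a copy.

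Members and lists were chosen with earlier results of these data known. Named genes are UPF1, the autoregulated genes, L paralogs and their parents, all members past the threshold, the 5 largest rises and falls, the extremes of read density, and the 3 smallest p of each further list. RPS23, RPL32, RPL13, RPL37, RPL15, the single lineage markers and the pseudogene rows were named after their values were seen. Transcript classes come from GENCODE 29 and starts from RefSeq GRCh38.p14, matched by symbol. Values of a few single genes are left out of the text.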

Additional observations from a re-analysis of the deposited data

How the results depend on the processing

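No paired analysis was possible because both siLuc count columns carry the same name, so the replicate block planned could not be run. The count of 23 fallers was within 1.5 times under RLE factors, library size alone, limma-voom, both other filters and TMM on sparsely read genes. It was 0 in DESeq2, 39 at an adjusted p of 0.1 and 2 with the density trend removed, of which 1 was among the 23, and 0 to 58 with a library left out. Risers were 1 in all of these settings except 0 with TMM on sparsely read genes, and 0 to 1 with a library left out. The median of the family was -0.065 with the density trend removed, -0.086 for siUPF1 replicate 1 over siLuc b alone, and -0.29 to -0.11 with a library left out. For the autoregulated genes the fallers, 2 with all libraries in edgeR, were 0 in DESeq2, 6 at an adjusted p of 0.1, 0 with the trend removed and 0 to 9 with a library left out, and their median was -0.062 with the trend removed, -0.083 in the pair alone and -0.29 to -0.11 with a library left out, -0.11 being without siUPF1 replicate 2. For the L paralogs the fallers were 2 with TMM on sparsely read genes, 0 in DESeq2, 2 at an adjusted p of 0.1 and 0 to 2 with a library left out, and their median was -0.076 in the pair alone and -0.20 to -0.11 with a library left out. UPF1 stayed called as lower in all 13 alternatives, from -1.80 to -1.44.

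Signs turned only for genes that had not passed. With TMM on sparsely read genes RPL22 stood at -0.015 and RPS29 at -0.000579. With the trend removed RPL10A stood at 0.016 and RPS23 at 0.0014. With a library left out, RPL22 ranged from -0.063 to 0.13, RPS29 from -0.029 to 0.13, RPL36A from -0.060 to 0.34, RPL32 from -0.16 to 0.072, RPL7L1 from -0.10 to 0.016 and RPS23 from -0.088 to 0.054. The cause of these moves was not tested. Depth limits RPL36A, RPL10L and RPL3L, and the part of read density in the other values was not tested.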

Other observations

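The table also holds rows for noncoding transcripts of ribosomal protein pseudogenes, 26 of them, chosen here after their values were seen. Of 25 tested, 3 rose and none fell in the edgeR test at an adjusted p of 0.05 (DESeq2 called 1 higher and none lower; 3 higher and 1 lower at an unadjusted p under 0.05 in edgeR), beside 16.8% of all genes tested that rose, with a median log2 fold change of -0.12. RPL32P3 had 10.9 and 14.1 CPM in siUPF1 libraries, against 5.66 and 7.68 CPM in siLuc libraries, a log2 fold change of 0.90 (SE 0.19, adjusted p = 1.64e-05, edgeR). RPL23AP53 had 20.7 and 18.7 CPM in siUPF1 libraries, against 12.8 and 14.0 CPM in siLuc libraries (0.55, SE 0.15), and RPL13P5 had 6.20 and 6.06 CPM in siUPF1 libraries, against 3.73 and 3.69 CPM in siLuc libraries (0.72, SE 0.24). All 3 are sparsely read, at 0.0475, 0.03 and 0.0804 reads per base. Their parents RPL32, RPL23A and RPL13 stood at -0.043, -0.22 and -0.16. RPL32P3 passed in all 13 alternatives, while RPL23AP53 missed the threshold in 2 and RPL13P5 in 3 of them.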
